A study of Mus musculus with 12 samples.

Results

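The PARP family genes measured here are 3 that act in DNA repair (Parp1, Parp2 and Parp3) and 5 known as interferon-induced (Parp9, Parp10, Parp11, Parp12 and Parp14), along with Dtx3l, which encodes the partner of PARP9. They were picked by gene name, giving 9 of the 55401 genes in the count table, and all 9 had enough reads to be tested. The RNA came from B16F10 mouse tumour cells, a line derived from a melanoma, in 4 groups of 3 libraries each. The control and control_IR groups carried the control guide sgNC, and the sgRnf19a and sgRnf19a_IR groups the guide sgRnf19a, directed at Rnf19a, which encodes a ubiquitin ligase. Within each pair one group was untreated and one was taken 24 h into a treatment that the labels call IR and do not spell out. The labels say neither whether the sgRnf19a cells are 1 clone nor whether each library of a group is a culture of its own, so p-values describe how these libraries spread. IR libraries are named by the number of their data column (1, 4 and 5 for control_IR, 1, 3 and 4 for sgRnf19a_IR), because those columns carry no IR name and were placed in the IR groups as the only groups the labels leave for them.

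PARP enzymes take ADP-ribose from NAD and attach it to proteins and nucleic acids. PARP1, PARP2 and PARP3 are switched on by DNA breaks, and PARP1 and PARP2 build long chains of ADP-ribose that recruit repair factors. PARP10, PARP11, PARP12 and PARP14 add single ADP-ribose units, and PARP9 works in a complex with the E3 ubiquitin ligase DTX3L. The genes of this second set are commonly induced by interferon through transcription factors that include STAT2 and IRF9 and bind the interferon-stimulated response element (ISRE), or through a second element, the gamma-activated site (GAS).

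Untreated libraries held 62681644 to 71265107 deposited counts and IR libraries 34262483 to 45576326, and ribosomal RNA genes took 0.223 to 0.696% of counts in untreated and 11.3 to 22.1% in IR libraries. The median level of genes with transcripts over 6 kb, minus that of genes under 1 kb, was 1.43 to 2.47 log2 units in the untreated libraries and -1.08 to 0.88 in the IR libraries, so transcript length and IR moved together across all genes. Replicate 4 of sgRnf19a_IR (0.88) lay closest to the untreated libraries on this scale and control_IR lay between -1.08 and -0.99. Rnf19a, the targeted gene, stood at 33.5, 29.4 and 21.5 CPM (counts scaled to library size with TMM factors) in control, 27.4, 25.6 and 22.6 in sgRnf19a, 4.37, 8.06 and 5.39 in control_IR and 18.1, 11.6 and 37.7 in sgRnf19a_IR. The guide was not called for Rnf19a RNA in untreated cells (log2 fold change -0.16, edgeR adjusted p = 0.881), and in IR-treated cells Rnf19a RNA was called higher with the guide (3.78-fold, 0.00352, and 2.06-fold, 0.00485, once libraries were corrected for the length and GC content of transcripts). The total RNA of a gene does not show whether a guide cut it, so groups are named by their labels throughout. Of 8 melanocyte markers, 4 (Tyr, Tyrp1, Mlana and Slc45a2) had no count in any of the 12 libraries, and the list summed to 9.53 to 16.4 CPM in untreated and 2.29 to 10.54 in IR libraries, most of it Mitf. Keratin 8, a marker of simple epithelium, was at 351 CPM in control and keratin 18 at 254, while Epcam (0.829) and Cdh1 (0.060 CPM) of the same list were near 0. The cell type of the label was therefore not borne out by its defining markers.

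In control cells Parp1 was the most abundant of the 9 genes per transcript length, at 35.9 ± 5.3 FPKM (fragments scaled by transcript length and library size, mean ± SD, n = 3), followed by Parp3 at 23.4 ± 2.9 FPKM. Parp2 (8.09 ± 0.31 FPKM) came next. Parp12 (6.31 ± 0.90), Parp9 (5.96 ± 0.58) and Parp10 (5.66 ± 0.16 FPKM) did not differ beyond their spread. Dtx3l (3.31 ± 0.23), Parp14 (2.13 ± 0.09) and Parp11 (1.14 ± 0.09 FPKM) were lowest, and the ranges of these 3 did not overlap. In untreated sgRnf19a cells the order was Parp3 (32.9 FPKM), Parp1 (26.2), Parp9 (21.9), Parp12 (16.8), Parp14 (14.8), Dtx3l (11.7), Parp10 (9.66), Parp2 (9.52) and Parp11 (3.20). Only Parp10 and Parp2 overlapped there. In control_IR Parp1 (21.0 FPKM) and Parp3 (20.3) stayed on top and Parp10 (12.4) and Parp12 (11.4) came above Parp9 (4.67), Parp2 (3.38), Dtx3l (2.70), Parp14 (1.23) and Parp11 (0.82 FPKM). In sgRnf19a_IR Parp12 (65.4 ± 20.9 FPKM) and Parp9 (58.7 ± 25.5) were the highest means, ahead of Parp10 (33.4), Parp3 (33.3), Dtx3l (25.5), Parp14 (21.7), Parp1 (16.4), Parp11 (9.42) and Parp2 (5.23 FPKM), with wide overlap between neighbours.

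**Figure D1:**
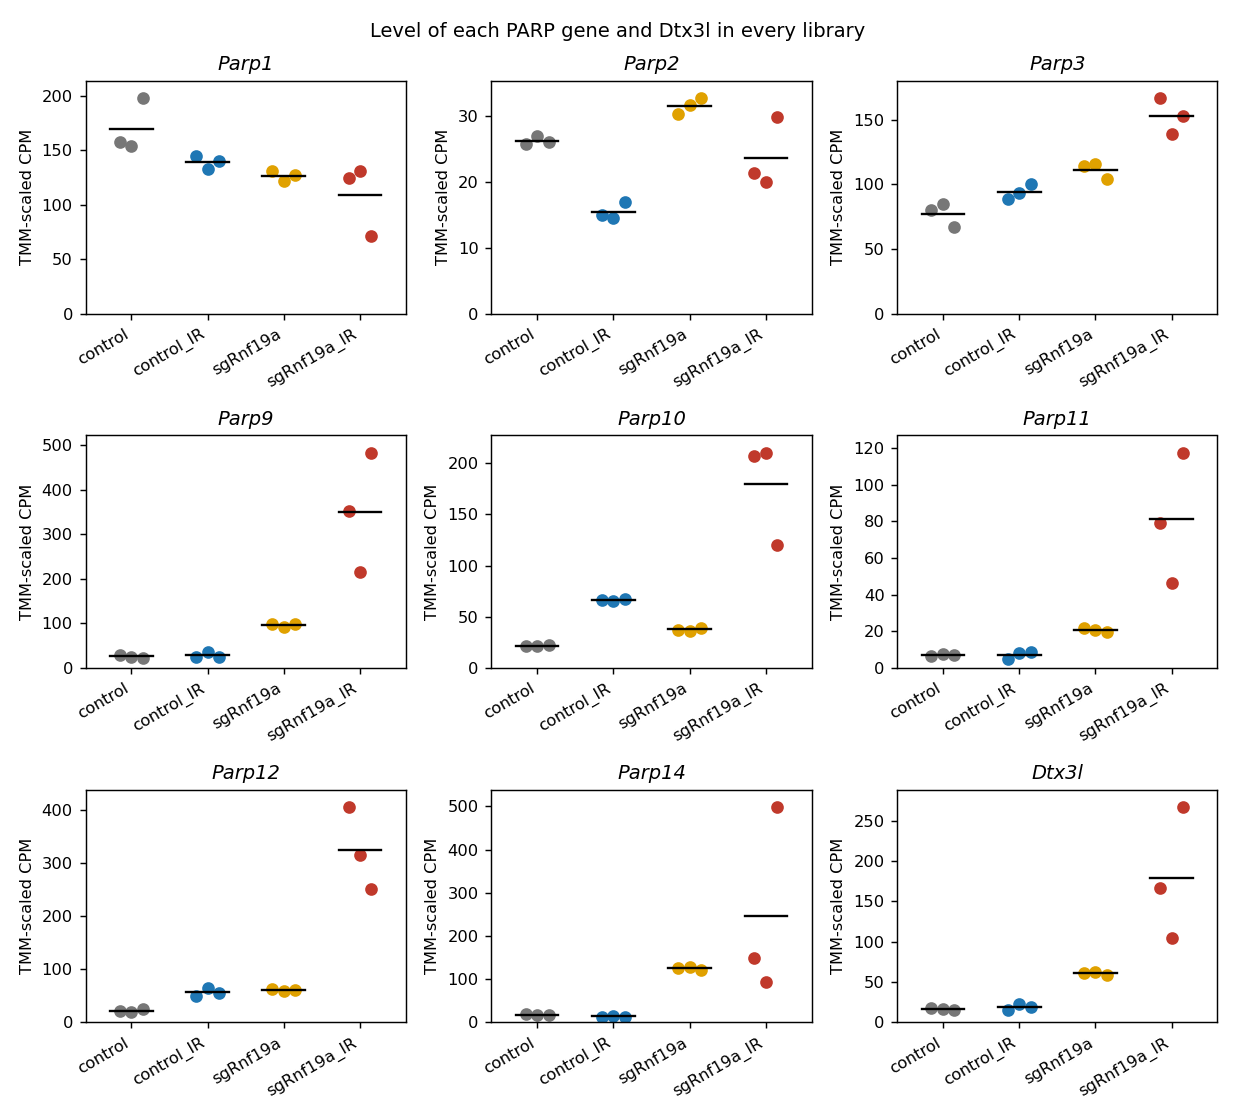
Level of each gene in every library, as TMM-scaled CPM on a linear axis from 0, with 1 point per library and a bar at the mean of the 3 libraries of a group. The 6 interferon-induced genes sit higher in every untreated sgRnf19a than in every control library (as did 22.3% of all genes), for example 92.8 to 99.7 against 23.5 to 29.1 CPM for Parp9. Parp2 and Parp3 do so too, while Parp1 does not.

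Parp1, Parp2 and Parp3 are the DNA-break sensors of the family. Of these 3, IR called Parp2 lower in control cells (25.7% of all genes were) and Parp3 higher in sgRnf19a cells (18.0%). The guide called Parp3 higher in untreated cells (3.02% of all genes) and both Parp2 and Parp3 higher in IR-treated cells (21.0%). Parp1 was called in none of the 5 comparisons. The changes that were called were between 1.38-fold and 1.70-fold in size.

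Parp1, the main polymerase of ADP-ribose chains (ENSMUSG00000026496, mm10 chr1:180568924-180601254, plus strand), stood at 157, 154 and 198 CPM in control and 145, 132 and 140 in control_IR. In sgRnf19a it stood at 131, 121 and 127 CPM, and in sgRnf19a_IR at 125, 130 and 71.3. Control libraries were the highest and replicate 4 of sgRnf19a_IR the lowest, and sgRnf19a_IR overlapped sgRnf19a. The log2 fold changes were -0.29 ± 0.20 (SE) for IR in control cells (edgeR adjusted p = 0.263), and -0.22 ± 0.20 for IR in sgRnf19a cells (0.436). The guide gave -0.42 ± 0.20 without IR (edgeR adjusted p = 0.313) and -0.35 ± 0.20 with IR (0.196).

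Parp2, which acts beside PARP1 at DNA breaks (ENSMUSG00000036023, chr14:50807841-50821301, plus strand), was at 25.7, 27.0 and 26.0 CPM in control and at 14.98, 14.5 and 16.9 in control_IR. All 3 control_IR libraries were below all control libraries, and the level was 1.70-fold lower (log2 fold change -0.76 ± 0.16, SE, n = 3 per group, edgeR adjusted p = 0.00164). In sgRnf19a cells it was at 30.3, 31.7 and 32.6 CPM untreated and at 21.3, 19.9 and 29.8 with IR. The groups did not overlap, but replicate 4 of sgRnf19a_IR was close to the untreated libraries and IR was not called (-0.41 ± 0.16, adjusted p = 0.0558). Without that library the edgeR value was -0.62 with an adjusted p of 0.000787. The guide was called in IR-treated cells (1.53-fold higher, adjusted p = 0.0112) but not in untreated cells (1.203-fold, 0.437). After a correction of each library for transcript length and GC content, the guide in IR-treated cells was at 0.22 on the log2 scale (edgeR adjusted p = 0.225) and no longer called. Parp2 is a short gene for this set (transcript 1.89 kb), and Rpph1, an RNA gene that starts 73 bp away on the other strand, averaged 0.339 CPM in control and 10.47 in control_IR. Whether reads of one were counted for the other was not tested.

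Parp3, which adds single ADP-ribose units at double-strand breaks (ENSMUSG00000023249, chr9:106470322-106476949, minus strand), stood at 80.4, 84.9 and 66.7 CPM in control and 114, 115 and 104 in sgRnf19a. With IR it stood at 88.3, 93.4 and 100.2 CPM in control_IR and 166, 139 and 153 in sgRnf19a_IR. No 2 of these 4 groups overlapped. The guide was called higher in both treatments, 1.44-fold untreated (edgeR adjusted p = 0.0324) and 1.63-fold with IR (0.00238). The untreated call was lost without control replicate 1 or 3 or any sgRnf19a replicate, at adjusted p between 0.0698 and 0.14. IR was called in sgRnf19a cells (1.38-fold higher, adjusted p = 0.0155) and not in control cells (1.22-fold, 0.0917). The call for IR in sgRnf19a cells was lost without sgRnf19a replicate 3 (edgeR adjusted p = 0.0671) or sgRnf19a_IR replicate 1 (0.082). On FPKM the change was close to 0 (-0.0019 on the log2 scale of FPKM + 1), beside a median of -0.40 over all genes on that scale. Rrp9 overlaps Parp3 by 987 bp on the opposite strand and itself averaged 26.9 CPM in control and 85.6 in control_IR, and its part in the Parp3 counts was not tested.

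In the interferon-induced set the guide called all 6 genes higher in untreated cells (3.02% of all genes were) and all 6 higher in IR-treated cells, sgRnf19a_IR against control_IR (21.0% of all genes). IR called Parp10 and Parp12 higher in control cells (22.2% of all genes were). In sgRnf19a cells it called Parp9, Parp10, Parp11, Parp12 and Dtx3l higher (18.0% of all genes). In bulk RNA, fewer cells with high expression and less RNA per cell cannot be told apart.

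**Figure D2:**
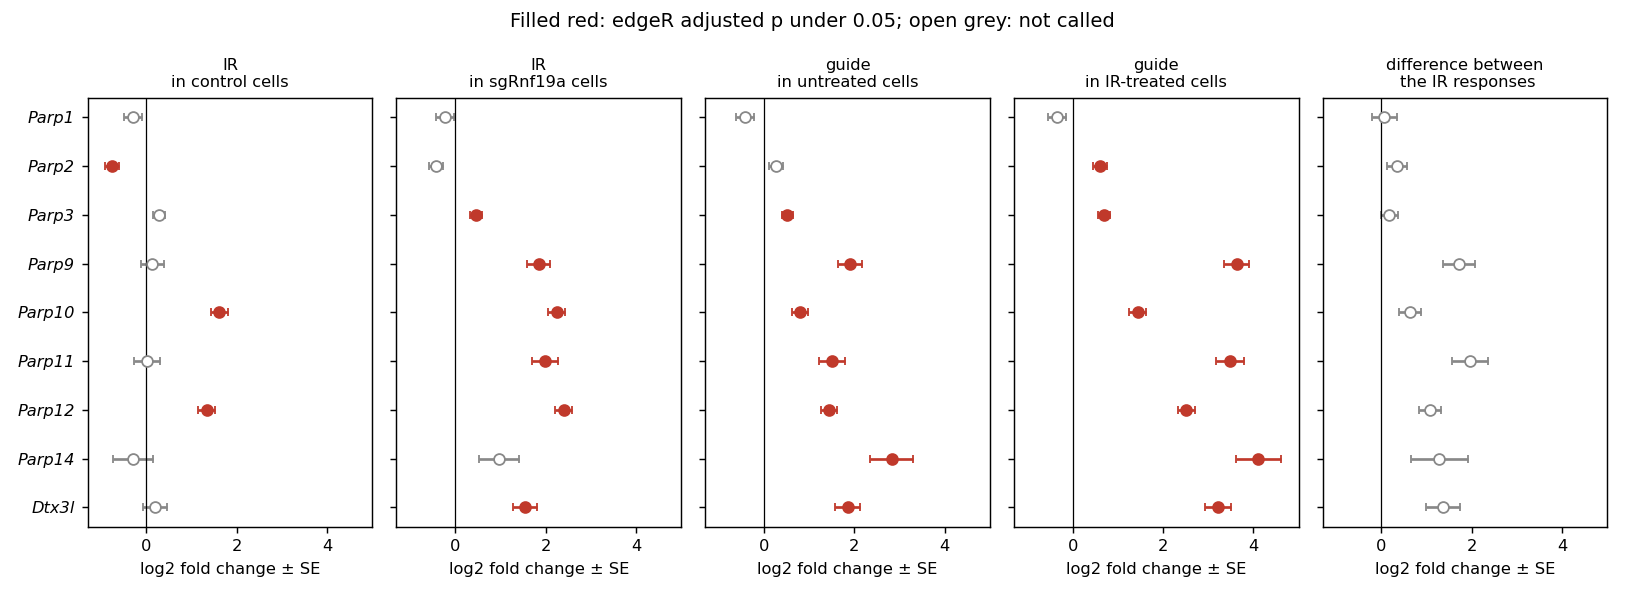
Log2 fold change with its SE for each gene in the 5 comparisons, from the fit over all 12 libraries, filled where the edgeR adjusted p was under 0.05. The guide was called higher for the 6 interferon-induced genes in both treatments, from 0.80 (Parp10, untreated) to 4.11 (Parp14, with IR), and no gene was called for the difference between the IR responses.

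For the guide in untreated cells, 7 of the 9 genes were called higher and none lower, against 3.02% of all 18183 genes tested called higher and 3.20% lower. These 7 were the 6 interferon-induced genes and Parp3. The median log2 fold change of the 6 was 1.68, beside 0.03 over all genes. Leaving out single libraries took away only the calls of Parp3 and Parp10 in this comparison.

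Parp14, which encodes a large protein with several macrodomains that bind ADP-ribose (ENSMUSG00000034422, chr16:35832874-35871544, minus strand), changed most. It stood at 18.8, 17.3 and 16.9 CPM in control and at 127, 129 and 122 in sgRnf19a, with little spread inside either group. That is 7.11-fold (2.83 ± 0.47 on the log2 scale, SE, edgeR adjusted p = 0.00321).

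Parp9, which has no catalytic activity of the usual kind on its own (ENSMUSG00000022906, chr16:35938470-35972605, plus strand), stood at 29.1, 25.1 and 23.5 CPM in control and 99.4, 92.8 and 99.7 in sgRnf19a. Dtx3l, the ubiquitin ligase it pairs with (ENSMUSG00000049502, chr16:35926511-35939151, minus strand), stood at 18.5, 16.5 and 15.8 CPM in control and 61.4, 63.1 and 58.7 in sgRnf19a. The partners were thus higher by nearly the same factor, 3.75-fold for Parp9 (edgeR adjusted p = 0.000681) and 3.61-fold for Dtx3l (0.00126).

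Parp11, linked to the nuclear envelope and to turnover of the interferon receptor (ENSMUSG00000037997, chr6:127446840-127494240, plus strand), stood at 6.77, 7.71 and 7.10 CPM in control and 21.6, 20.6 and 19.4 in sgRnf19a. Parp12, a zinc finger PARP with antiviral activity (ENSMUSG00000038507, chr6:39086410-39118349, minus strand), stood at 22.1, 19.5 and 25.8 CPM in control and 63.1, 58.8 and 61.6 in sgRnf19a. Neither gene's groups overlapped, and the guide effect was 2.86-fold for Parp11 (edgeR adjusted p = 0.0072) and 2.72-fold for Parp12 (0.000374). Parp10, a mono-ADP-ribosyltransferase that also binds ubiquitin (ENSMUSG00000063268, chr15:76231174-76243441, minus strand), stood at 21.5, 21.1 and 22.2 CPM in control and 37.0, 36.5 and 39.5 in sgRnf19a. At 1.75-fold it was the smallest change of the 6 (edgeR adjusted p = 0.0199), and its call was lost when any 1 of the 6 untreated libraries was left out (0.0574 to 0.0795). Parp10 overlaps Plec by 1401 bp on the same strand, and Plec was far more abundant (582 CPM in control, 410 in sgRnf19a), so counts in the shared stretch cannot be told apart.

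Promoter windows from RefSeq, 250 bases before to 50 after a gene's start on GRCm38.p6, were in the reference table for 6 of the 9 genes: Parp1, Parp2, Parp3, Parp11, Parp12 and Dtx3l. They were searched on both strands for the ISRE core (GAAA, any 2 bases, then GAAA again) and for the GAS motif TTCNNNGAA. Shown are the 3 genes of the interferon-induced set with a window, since these rose together with the guide: Parp11 (chr6:127446590-127446889, plus strand), Dtx3l (chr16:35938978-35939277, minus strand) and Parp12 (chr6:39118300-39118599, minus strand), each 5′ to 3′ on the gene's strand with motif matches in capitals.
Parp11: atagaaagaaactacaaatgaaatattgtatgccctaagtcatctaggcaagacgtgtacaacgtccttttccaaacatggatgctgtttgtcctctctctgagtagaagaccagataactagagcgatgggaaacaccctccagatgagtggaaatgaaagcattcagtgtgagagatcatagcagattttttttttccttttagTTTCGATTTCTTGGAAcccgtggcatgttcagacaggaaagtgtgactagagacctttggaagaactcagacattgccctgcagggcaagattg
Dtx3l: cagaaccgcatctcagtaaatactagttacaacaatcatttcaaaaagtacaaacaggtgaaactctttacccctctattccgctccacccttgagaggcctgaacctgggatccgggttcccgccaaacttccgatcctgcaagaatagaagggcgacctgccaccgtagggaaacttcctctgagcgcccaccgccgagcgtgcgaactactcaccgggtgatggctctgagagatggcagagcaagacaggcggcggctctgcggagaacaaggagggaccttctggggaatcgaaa
Parp12: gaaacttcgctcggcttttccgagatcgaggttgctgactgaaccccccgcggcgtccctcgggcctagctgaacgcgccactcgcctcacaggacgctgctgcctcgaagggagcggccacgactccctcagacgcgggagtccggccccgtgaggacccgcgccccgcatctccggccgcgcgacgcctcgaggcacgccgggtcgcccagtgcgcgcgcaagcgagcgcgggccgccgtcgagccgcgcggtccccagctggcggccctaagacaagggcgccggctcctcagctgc
In the Parp11 window the letters TTTCGATTTC match the ISRE core on the opposite strand, starting 44 bases before the gene's start, and TTCTTGGAA matches GAS 37 bases before it. The matches overlap. Of all 32851 windows in the table, 3.44% hold the ISRE core and 8.3% the GAS motif. No other of the 7 windows of these genes, which include a further Parp11 start, holds either set of letters. The Parp12 window is rich in G and C (73.7%), the Dtx3l window less so (54.3%) and the Parp11 window least (42.0%).

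Parp14, Dtx3l and Parp9 lie together on chromosome 16 within 139.7 kb, in mm10 coordinates. Dtx3l and Parp9 point away from each other and overlap by 682 bp at their starts, and 55.0 kb separate Parp14 from Dtx3l. Of the 10 genes tested from 100 kb before Parp14 to 100 kb after Parp9, a window chosen after the values were seen, the guide in untreated cells was called for these 3 and for Gm49730, which lies inside Parp14 (edgeR adjusted p = 0.0477). Flanking genes Hspbap1 (1.21-fold, edgeR adjusted p = 0.383) and Kpna1 (1.46-fold, 0.425) were not called. In IR-treated cells Kpna1 was called too (3.01-fold, edgeR adjusted p = 0.00365), while Hspbap1 was not (1.25-fold lower, 0.11). It is not known whether the counting used strand, so reads from the stretch that Dtx3l and Parp9 share cannot be assigned. Gm15564, annotated across 5854 bp of Parp9 on the other strand, had 12335 counts in replicate 4 of sgRnf19a_IR, 172 in control replicate 1 and 0 in the other 10 libraries.

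The FPKM ratio of Dtx3l to Parp9 was 0.541, 0.557 and 0.571 in control and 0.526, 0.579 and 0.502 in sgRnf19a. It was 0.563, 0.527 and 0.666 in control_IR and 0.400, 0.413 and 0.470 in sgRnf19a_IR. The ratio was lowest in all 3 sgRnf19a_IR libraries, and in the other 3 groups the ranges overlapped. The ratio of Parp14 to Parp9 was 0.337, 0.360 and 0.376 in control, 0.668, 0.725 and 0.640 in sgRnf19a and 0.295, 0.232 and 0.281 in control_IR. In sgRnf19a_IR it was 0.222, 0.229 and 0.540. Parp14 was thus higher relative to Parp9 in every untreated sgRnf19a library than in any control library. In sgRnf19a_IR replicate 4, with the highest long-minus-short difference of that group (0.88), stood apart. These ratios were not corrected for length, and the transcripts of Dtx3l (5.31 kb) and Parp14 (7.42 kb) are longer than that of Parp9 (3.55 kb). After the length and GC correction, IR in sgRnf19a cells gave log2 fold changes of 1.99 for Parp9 and 1.94 for Dtx3l. The guide in IR-treated cells gave 3.12 and 2.41.

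**Figure D3:**
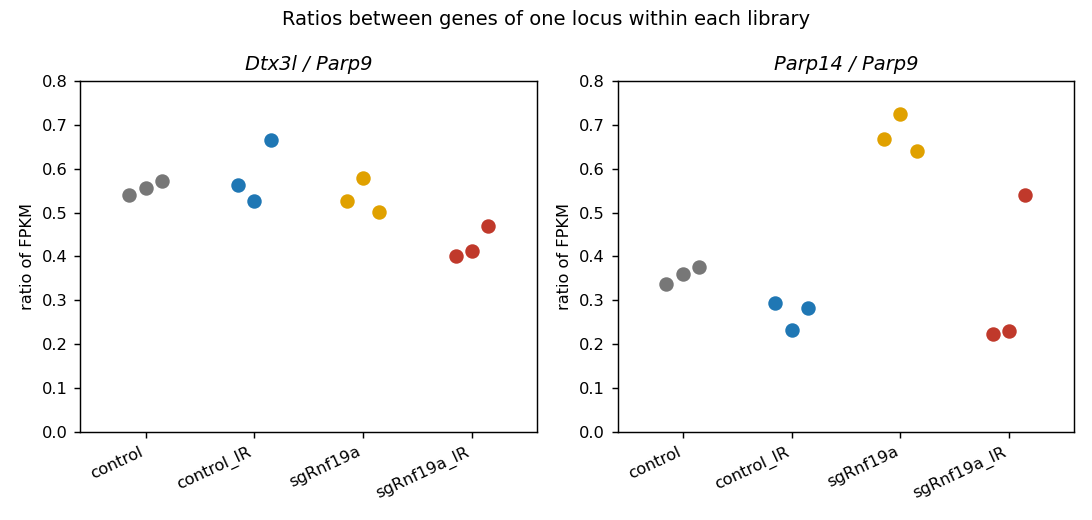
Ratio of FPKM values within each library, Dtx3l to Parp9 on the left and Parp14 to Parp9 on the right, with 1 point per library and a linear axis from 0. Dtx3l to Parp9 stays between 0.502 and 0.666 outside sgRnf19a_IR, and Parp14 to Parp9 reaches 0.640 to 0.725 in untreated sgRnf19a. The ratios are not corrected for the shift with transcript length between untreated and IR libraries.

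With IR in control cells, 2 of the 9 genes were called higher (Parp10 and Parp12) and 1 lower (Parp2), against 22.2% of all genes called higher and 25.7% lower. Parp10 stood at 65.9, 65.5 and 67.1 CPM in control_IR, 3.07-fold above control (1.62 ± 0.18 on the log2 scale, SE, edgeR adjusted p = 8.26e-05). Parp12 stood at 50.5, 64.2 and 55.1 CPM, 2.52-fold above control (1.33 ± 0.18, adjusted p = 0.00015). Neither gene's IR libraries overlapped its untreated ones.

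The other 4 interferon-induced genes were not called with IR in control cells. Parp9 stood at 24.1, 36.2 and 24.9 CPM in control_IR (1.095-fold, edgeR adjusted p = 0.706). Dtx3l stood at 15.9, 22.4 and 19.5 CPM (1.14-fold, 0.594), with replicate 4 the highest of the 3 for both partners. Parp11 stood at 5.15, 8.002 and 8.61 CPM (1.01-fold, 0.973), and Parp14 at 13.6, 16.1 and 13.4 (1.23-fold lower, 0.62). The control_IR values overlapped control for Parp9, Dtx3l and Parp11, and lay just under control for Parp14.

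These 4 genes have longer transcripts than the genes that were called, by little for Parp9 (3.55 kb) and Parp11 (3.75 kb). Parp10 (3.37 kb) and Parp12 (3.23 kb) fall in the same class of 2 to 4 kb. The GC content of transcripts was 47.5% for Parp9, 46.5% for Parp11, 46.3% for Parp14 and 45.9% for Dtx3l. It was 58.2% for Parp10 and 50.6% for Parp12. Across all protein-coding genes tested, the median log2 fold change with IR in control cells fell from 1.29 for transcripts under 1 kb to 0.02 at 2 to 4 kb and -1.16 over 6 kb. Parp14 (7.42 kb) and Dtx3l (5.31 kb) lay above the medians of their length classes, -1.16 and -0.50. After correction of each library for length and GC content, all 6 interferon-induced genes were called higher with IR in control cells, as were 23.0% of all genes in that fit: Parp12 at 1.47 (edgeR adjusted p = 0.000112), Parp10 at 1.39 (2.16e-05), Dtx3l at 1.29 (7.31e-05), Parp14 at 0.95 (0.0223), Parp11 at 0.75 (0.00795) and Parp9 at 0.69 (0.00705). Parp2 was still called lower (-0.53, edgeR adjusted p = 0.00502). On FPKM the directions of Parp9, Parp11 and Dtx3l turned, to between -0.47 and -0.23 on the log2 scale, none of them called. The medians over all genes there were -0.34 (FPKM + 1) and -0.45 (FPKM + 0.1). Directions for Parp9, Parp11, Parp14 and Dtx3l with IR in control cells therefore depend on the scaling.

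**Figure D4:**
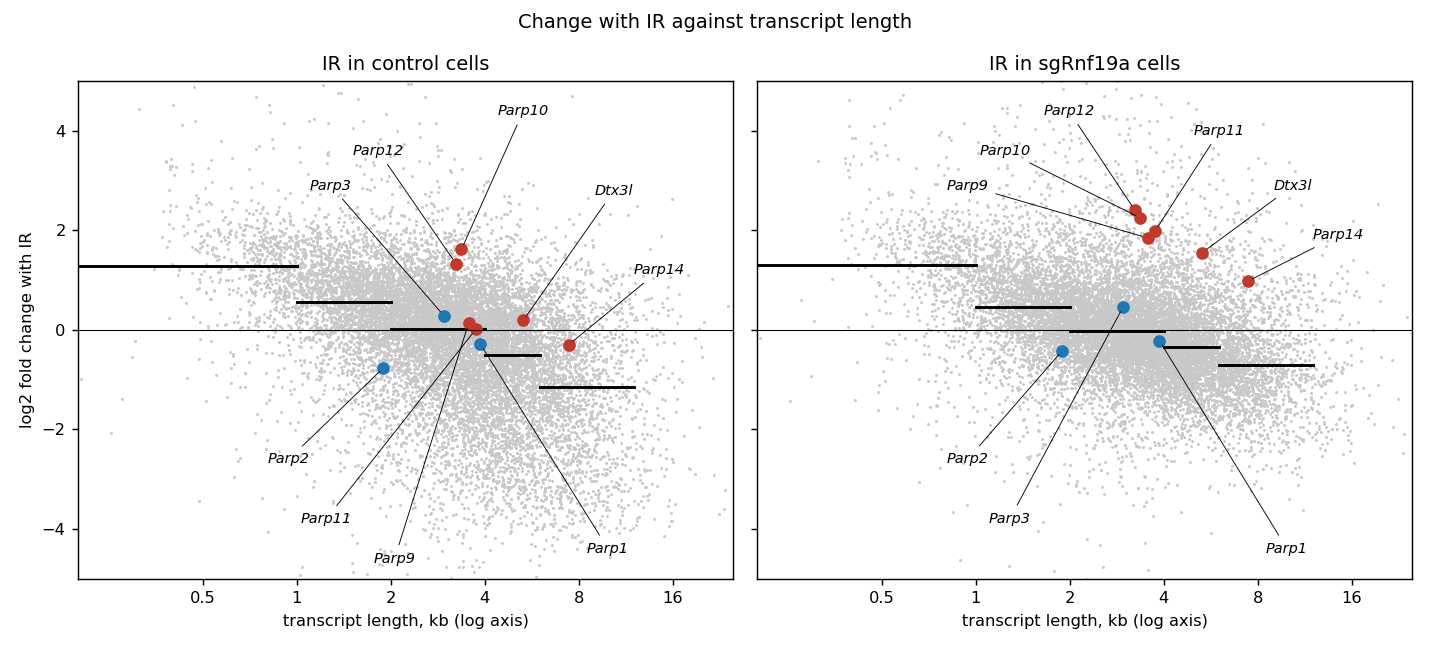
Log2 fold change with IR against transcript length on a log axis for 13888 protein-coding genes (grey), with DNA-repair PARPs in blue, the interferon-induced set in red and black bars at the median of genes under 1, 1 to 2, 2 to 4, 4 to 6 and over 6 kb. Medians fall with length in both panels, from 1.29 to -1.16 in control and from 1.31 to -0.70 in sgRnf19a cells, and 234 and 120 genes lie outside the axes.

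With IR in sgRnf19a cells, 6 of the 9 genes were called higher and none lower, against 18.0% of all genes called higher and 17.6% lower. They were Parp3 and 5 of the 6 interferon-induced genes. The median log2 fold change of the 6 interferon-induced genes was 1.91, beside -0.02 over all genes.

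Parp12 rose most, to 405, 316 and 251.1 CPM (5.30-fold, or 2.41 ± 0.19 on the log2 scale, SE, edgeR adjusted p = 8.46e-06). Parp10 rose to 207, 210 and 121 CPM (4.76-fold, edgeR adjusted p = 1.59e-05). In both genes replicate 4 was the lowest of the IR libraries, yet above all untreated ones. Parp11 rose to 79.3, 46.3 and 117 CPM (3.95-fold, edgeR adjusted p = 0.000379). Parp9 rose to 353, 215 and 483 CPM (3.603-fold, edgeR adjusted p = 0.000299) and Dtx3l to 166, 105 and 267 CPM (2.93-fold, 0.00105). For these 3 genes replicate 4 was the highest and replicate 3 the lowest, and no IR library overlapped an untreated one. Parp14 stood at 150, 94.3 and 498 CPM, on both sides of the untreated 122 to 129, and was not called (1.97-fold, log2 fold change 0.98 ± 0.44, edgeR adjusted p = 0.11). Without replicate 4 of sgRnf19a_IR its log2 fold change was -0.05, and without replicate 3 it was 1.35 and called (edgeR adjusted p = 0.0121).

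In Parp14, Dtx3l, Parp9 and Parp11 the sgRnf19a_IR libraries ranked replicate 4, then 1, then 3. That was also their order in the long-minus-short difference (0.88, 0.0032 and -0.79). Parp2, with a transcript of only 1.89 kb, had the same order (29.8, 21.3 and 19.9 CPM). Parp1 (3.87 kb), longer than Parp9 and Parp11, had replicate 4 lowest (71.3 CPM), as did Parp10 and Parp12. Parp3 had replicate 1 highest (166 CPM). The order of the libraries thus did not follow transcript length from gene to gene, and how many of all genes share it was not tested. Corrected for length and GC content, all 6 interferon-induced genes were called higher with IR in sgRnf19a cells (17.6% of all genes were), Parp14 at 1.34 (edgeR adjusted p = 0.00381), Dtx3l at 1.94 (2.81e-06) and the other 4 between 1.99 and 2.42. Parp3 stayed called at 0.40 (edgeR adjusted p = 0.0233), and Parp2 was called lower at -0.47 (0.0109).

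**Figure D5:**
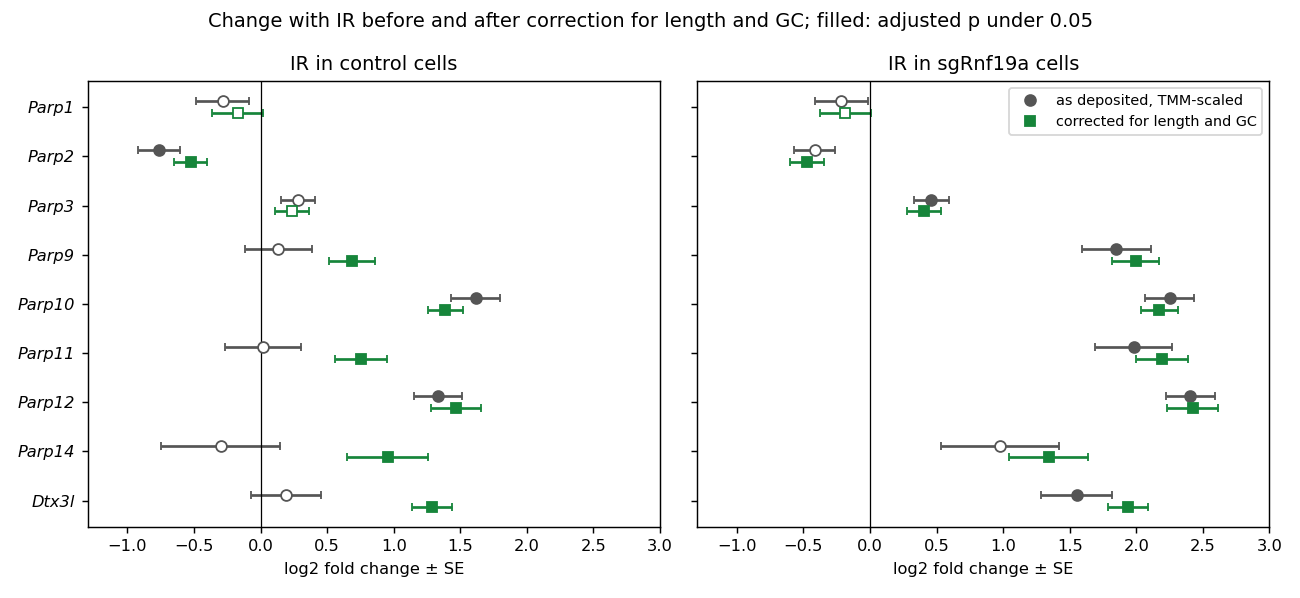
Log2 fold change with IR and its SE for each gene before (grey circles) and after (green squares) correction of each library for transcript length and GC content, filled where the edgeR adjusted p was under 0.05. In control cells Dtx3l moves from 0.19 to 1.29 and Parp14 from -0.30 to 0.95, while in sgRnf19a cells Parp12 stays at 2.41 and 2.42.

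With the guide in IR-treated cells, 8 of the 9 genes were called higher and none lower, against 21.0% of all genes called higher and 12.8% lower. Parp14 was 17.2-fold higher (4.11 ± 0.50 on the log2 scale, SE, edgeR adjusted p = 0.000196), Parp9 12.3-fold (6.09e-06), Parp11 11.1-fold (1.95e-05) and Dtx3l 9.28-fold (2.02e-05). Parp12 was 5.72-fold higher (4.81e-06) and Parp10 2.71-fold (0.000255). Every sgRnf19a_IR library was above every control_IR library for each of the 6 genes, as for 23.0% of all genes, and the 6 were called higher under all 17 alternatives tried. The median log2 fold change of the 6 was 3.35, beside 0.07 over all genes. After correction for length and GC content the largest folds were smaller, 8.98-fold for Parp14, 8.69-fold for Parp9, 7.11-fold for Parp11 and 5.33-fold for Dtx3l, and that of Parp10 larger, 3.42-fold (edgeR adjusted p = 1.36e-06).

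Immune cells also express the interferon-induced PARPs, and the part of such cells in these results was not tested. Of 10 immune markers, Cd3e and Nkg7 had 0 counts in all 12 libraries. The list summed to 52.4 to 61.3 CPM in control and 62.1 to 72.3 in sgRnf19a, and with IR to 10.6 to 29.8 and 24.4 to 53.8, respectively. Ptprc, which marks all leukocytes, averaged 4.24 CPM in control and 2.71 in sgRnf19a, and 1.79 and 2.905 with IR. Lyz2, a myeloid marker, averaged 7.45, 26.0, 4.42 and 9.61 CPM in control, sgRnf19a, control_IR and sgRnf19a_IR. In untreated cells the other myeloid markers were not higher with the guide. Cd68 averaged 27.3 CPM in control and 26.3 in sgRnf19a, Csf1r 9.86 and 8.05, Adgre1 4.66 and 3.28 and Itgam 2.34 and 2.05. With IR the means of these markers were higher with the guide. Itgam averaged 0.343 CPM in control_IR and 2.27 in sgRnf19a_IR, and Csf1r 2.002 and 5.36. Cd68 averaged 12.6 and 13.9 CPM in these groups, and Adgre1 1.63 and 1.78. Itgax had at most 3 counts in any library.

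The difference between the IR responses of the genotypes was called for none of the 9 genes by edgeR (0 of 9, against 0.682% of all genes). The estimates were 1.96 ± 0.40 (SE, log2 scale) for Parp11 (adjusted p = 0.0535), 1.72 ± 0.36 for Parp9 (0.0557), 1.36 ± 0.37 for Dtx3l (0.101), 1.28 ± 0.63 for Parp14 (0.27), 1.07 ± 0.25 for Parp12 (0.0719) and 0.63 ± 0.25 for Parp10 (0.187). For Parp1, Parp2 and Parp3 they were 0.07, 0.35 and 0.18. At an unadjusted edgeR p under 0.05, 5 of the 9 passed, beside 21.2% of all genes, and DESeq2 called 4, beside 12.4%. With DESeq2 size factors, no filter, a filter of 1 CPM in 3 libraries, the length and GC correction or counts divided by 4, edgeR called Parp9 and Parp11 (adjusted p from 0.0239 to 0.0497). Without replicate 3 of sgRnf19a_IR edgeR called Parp9, Parp11, Parp12, Parp14 and Dtx3l, beside 13.4% of all genes, and without replicate 4 it called Parp9, Parp10, Parp11 and Parp12, beside 2.60%. The call for a difference between the genotypes thus turned on the tool, the filter, the scaling and the libraries kept.

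The upstream genes of type I interferon signalling were described from a fixed list of 11, all tested. The guide in untreated cells was called higher for 4 of the 11 and lower for none (3.02% and 3.20% of all genes). Among the 4 were Irf7 (6.71-fold, edgeR adjusted p = 4.66e-06), Stat2 (4.23-fold, 4.24e-05) and Irf9 (3.29-fold, 8.71e-05). These 3 encode transcription factors that drive interferon-induced genes. Ifnb1, the interferon beta gene, was at 0.194 CPM in control and 0.252 in sgRnf19a and was not called (edgeR adjusted p = 0.694). With IR it was at 21.1 CPM in control_IR and 24.9 in sgRnf19a_IR, called in both genotypes (1.68e-06 and 6.05e-07), and the guide in IR-treated cells was not called (1.18-fold, 0.534). After the length and GC correction the direction of that guide effect turned, to 1.24-fold lower, again not called (edgeR adjusted p = 0.497). Ifnb1 thus rose with IR in both genotypes. With IR 8 of the 11 were called higher and 2 lower in control cells (22.2% and 25.7% of all genes), and 6 and 2 in sgRnf19a cells (18.0% and 17.6%). After the length and GC correction these counts were 9 and 2 (23.0% and 16.6%) and 6 and 2 (17.6% and 17.2%). Irf1, also a target of interferon, was the 1 gene of the list called for the difference between the IR responses (1.0996 on the log2 scale, edgeR adjusted p = 0.0255). That call was lost when any of 9 of the 12 libraries was left out (adjusted p 0.0508 to 0.0967) and on FPKM + 0.1 (limma adjusted p = 0.0576) or without a filter (0.0544). With the length and GC correction Irf1 stayed called (1.15, edgeR adjusted p = 0.0103) and Irf9 was called too (-1.12, 0.0303).

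Of the 8 remaining PARP family genes, edgeR called 0 for the guide in untreated cells and DESeq2 called 1, and 2 passed an unadjusted p under 0.05 in edgeR (Parp4 at 1.32-fold and Zc3hav1 at 1.49-fold). Of all genes edgeR called 3.02% higher and 3.20% lower there, so 0 calls do not set a list of 8 apart. Low unadjusted p-values were common there, as Parp1 with an unadjusted edgeR p of 0.0555 ranked 3227 of 18183 genes. With IR in control cells 6 of the 8 were called lower and none higher (25.7% of all genes were called lower), with a median log2 fold change of -1.42. After the length and GC correction 4 were called lower and 1, Zc3hav1, higher, with a median of -0.55, beside 16.6% of all genes lower and 23.0% higher. The largest falls were those of Tnks (7.60-fold lower, edgeR adjusted p = 0.000136) and Tnks2 (5.77-fold, 0.000115), the tankyrases, which have long transcripts. Corrected for length and GC content, Tnks was 3.12-fold and Tnks2 2.16-fold lower, both still called. For the guide in IR-treated cells 6 of the 8 were called higher and 1, Parp16, lower (21.0% and 12.8% of all genes). After the correction 5 were called higher and 1 lower (10.2% and 14.5%). Tiparp was 5.76-fold higher (edgeR adjusted p = 0.00137) and Zc3hav1, the antiviral zinc finger PARP, 2.74-fold (0.000356), against 2.36-fold and 1.69-fold after the correction.

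Genes that remove or read ADP-ribose, 9 of them tested, held 1 called for the guide in untreated cells: Chd1l, a chromatin remodeller that PARP1 activates, was 2.32-fold higher (edgeR adjusted p = 0.000135). Of all genes edgeR called 3.02% higher and 3.20% lower in that comparison. With IR in control cells edgeR called 2 of the 9 higher and 3 lower (22.2% and 25.7% of all genes). Parg, which degrades ADP-ribose chains, was 7.60-fold lower with IR in control cells (adjusted p = 0.000146), and 3.85-fold lower after the correction for length and GC content. The 2 called higher were Oard1 (2.32-fold, edgeR adjusted p = 5.96e-05) and Adprhl2 (2.12-fold, 0.00137). For the guide in IR-treated cells 5 of the 9 were called higher and 2 lower (21.0% and 12.8% of all genes), and after the correction 2 higher and 2 lower (10.2% and 14.5%). Of 16 genes of single-strand break and base excision repair, edgeR and DESeq2 each called 0 for the guide in untreated cells (3 had an unadjusted edgeR p under 0.05). Beside 3.02% and 3.20% of all genes, 0 calls do not set a list this short apart. With IR edgeR called 7 higher and 2 lower in control cells (22.2% and 25.7% of all genes). In sgRnf19a cells it called 7 higher and 5 lower (18.0% and 17.6%). After the correction these counts were 6 higher and 2 lower (23.0% and 16.6%) and 5 higher and 6 lower (17.6% and 17.2%). Apex1, an endonuclease of base excision repair, was 4.800-fold higher with IR in control cells (edgeR adjusted p = 8.28e-05), and 3.53-fold higher after the correction. Of 8 genes of NAD synthesis edgeR and DESeq2 called the guide for none in untreated cells (1 had an unadjusted edgeR p under 0.05). That does not set this list apart from all genes either (3.02% higher and 3.20% lower). For the guide in IR-treated cells edgeR called 1 higher and 3 lower (21.0% and 12.8% of all genes), and the same numbers after the correction (10.2% and 14.5%). The genes were not all the same. With the correction Nadsyn1 lost its call (edgeR adjusted p = 0.0644) and Nmrk1 was called lower (-1.12, 0.0133). Of the other deltex genes, 3 were tested, and Dtx4 was 2.25-fold lower with the guide in untreated cells (edgeR adjusted p = 0.0143), a call lost without control replicate 1 or 3 or sgRnf19a replicate 2 or 3.

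The genes nearest in pattern were found among 10492 genes by the root mean square difference of centred log2 levels over the 12 libraries, a description in which all points share the same libraries. Parp9 was nearest to Dtx3l (0.20), then to Ifi211 and Parp11 (0.25 each). Dtx3l was nearest to 9930111J21Rik1 (0.19), Parp9 and Parp11 (0.20 each), and Parp11 to Nlrc5, Dtx3l (0.20 each) and Ifi211 (0.25). Parp9, Parp11 and Dtx3l were thus near one another although Parp11 lies on another chromosome. Parp14 was nearest to Ifi44 (0.21), Trim12c (0.29) and 9930111J21Rik2 (0.30). Parp10 was nearest to Ifi35 (0.15), Psmb10 (0.18) and H2-T22 (0.19), and Parp12 to Isg20 (0.21), Znfx1 (0.22) and Bst2 (0.29). Parp10 and Parp14 lay 1.55 apart, farther than Parp10 and Parp12 (0.47). The DNA-repair PARPs had other neighbours, Plxna1 (0.084) for Parp1, Wdr70 (0.066) for Parp2 and Mettl6 (0.13) for Parp3. With 2 in place of 0.5 CPM added before the log, Trim12c (0.15) came before Ifi44 (0.19) for Parp14, and Parp11 (0.20) was nearest to Dtx3l, so the order of near neighbours depends on that choice.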

How the data were processed

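RNA was measured in 12 libraries of B16F10 cells, 3 in each of 4 groups. The authors deposited a table of whole-number counts per Ensembl gene, treated here as estimated counts because low values piled up at 4 (5833 values, against 961 at 3 and 959 at 5), so that 1 read pair is worth about 4 counts. They also deposited FPKM values per gene and library. Tools named in the submitters' processing notes are Bowtie2, HTSeq and DESeq2, and the builds named there are mm10 and GRCm39. What each was used for, its version and the use of strand in counting: not given in the sources used here. Coordinates of 8 of the 9 genes equal those of GENCODE M21 on mm10. The table's 12 other per-sample columns repeat the counts and were left aside.

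Genes were kept by filterByExpr (minimum count 10, minimum total 15), leaving 18183. After TMM scaling, 1 robust quasi-likelihood model of edgeR 4.0.16 (R 4.3.3) took in the 12 libraries as 4 group means. Tests were 2-sided. Within each comparison p-values were adjusted over all tested genes by Benjamini-Hochberg, and called means adjusted p under 0.05. The 5 comparisons are the effect of IR within each genotype, that of the guide within each treatment, and what sets the IR responses of the genotypes apart. CPM use TMM-scaled library sizes. Depth was 34262483 to 71265107 counts per library, and precision is set by the spread between libraries. Alternatives were DESeq2 1.42.0, its size factors, upper-quartile factors, other filters, only the groups compared, limma 3.58.1 on log2(FPKM + 1) for genes averaging 0.5 FPKM or more, the same with 0.1 in place of 1 or with no filter, a per-library spline correction (5 degrees of freedom) for GC content and transcript length, counts divided by 4, a replicate block and leaving out each library. Changes on FPKM carry the pseudocount, which shrinks those of low genes. The edgeR step was tested on simulated data.

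The 9 genes and all lists were chosen with earlier results of these data known. Every one of the 9 is named in every comparison, up to 4 called genes with the smallest p from each other list, the 3 genes nearest in pattern (mean of at least 2 CPM, 0.5 added before the log), and genes that overlap one of the 9 or lie within 1 kb of it. Adprs and Qprt of the lists were not in the tables, and 1 gene of the lists is counted but not reported here by name. Figures were drawn with matplotlib 3.10.9.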

Additional observations from a re-analysis of the deposited data

How the results depend on the processing

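Over the 9 genes and 5 comparisons, 718 of 819 values under an alternative kept their direction and their side of the threshold, 24 lost the call, 47 gained one and 30 reversed; the cause was not tested except where fewer libraries were fitted. For IR in control cells Parp11 reversed with DESeq2 and without the filter (-0.052 each), with DESeq2 size factors (-0.018), with only the groups compared (-0.029), on FPKM (-0.24 and -0.47) and without control replicate 1 or control_IR replicate 4 or 5 (-0.14 to 0.20 over all libraries left out). Also there, Parp9 (-0.31, -0.37), Dtx3l (-0.23, -0.30) and Parp3 (-0.20 each) reversed on FPKM, Parp9 without control_IR replicate 4 (-0.10, up to 0.23 without replicate 1), and Parp14 with the length and GC correction (0.95). For IR in sgRnf19a cells Parp3 reversed on FPKM (-0.0019, -0.0024), and without sgRnf19a_IR replicate 4 so did Parp1 (0.0050, down to -0.38 without replicate 3) and Parp14 (-0.051, up to 1.35 without replicate 3). For the difference between the IR responses Parp1 reversed with upper-quartile factors (-0.025), the length and GC correction (-0.013) and without control replicate 3 or sgRnf19a_IR replicate 3 (-0.078 to 0.30 over all libraries left out). Among other called genes Nampt (0.36, IR in control cells) and Hpf1 (-0.23, guide in IR-treated cells) reversed with the correction, and Nmnat1 (-0.0088, -0.011, IR in control cells) and Nadk (-0.061, -0.062, IR in sgRnf19a cells) on FPKM. Ifnb1, not called for the guide in IR-treated cells, also reversed there with the correction (-0.31).

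Of the 9 genes, those called lower with IR in control cells numbered 2 instead of 1 on FPKM and with only the groups compared, and those called higher 6 instead of 2 with the correction. Those called lower with IR in sgRnf19a cells numbered 1 with DESeq2, its size factors and the correction and 2 on FPKM, instead of 0. On FPKM + 1, 6042 of all 12753 genes tested were called lower with IR in control cells and 6307 in sgRnf19a cells. In both genotypes 2 of 9 was thus not above the share of all genes. For the difference between the IR responses the called genes of the 9 numbered 4 with DESeq2, and 2 with its size factors, no filter, 1 CPM in 3 libraries, the correction and counts divided by 4. Over all genes, DESeq2 called 1675 of 13475 tested. The edgeR alternatives just named called between 117 (no filter, of 29550) and 296 (the correction, of 18159). For the guide in untreated cells 4 instead of 7 were called higher on FPKM without a filter, and 1 lower with only the groups compared. Over all genes, 1131 were called for the guide in untreated cells, 1734 with DESeq2 and 2825 with only the groups compared; for the guide in IR-treated cells 6140, 2797 with only the groups compared and 3414 on FPKM without a filter; for the difference 124, 1675 with DESeq2, 57 on FPKM + 0.1 and 296 with the correction.

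Leaving out single libraries gave 7383 to 8144 called genes for IR in control cells, 4722 to 8773 for IR in sgRnf19a cells, 642 to 911 for the guide in untreated cells, 3877 to 7612 for the guide in IR-treated cells and 5 (without control_IR replicate 5) to 2624 (without sgRnf19a_IR replicate 3) for the difference. Of the 9 genes it gave 5 to 7 higher and 0 to 1 lower with IR in sgRnf19a cells (the 1 is Parp2, without sgRnf19a_IR replicate 4), 5 to 6 higher with the guide in untreated cells and 0 to 5 higher for the difference. Calls were higher rather than lower in 46.3% for IR in control cells, 25.9% on FPKM, 56.2% with upper-quartile factors and 58.1% with the correction, in 50.4% for IR in sgRnf19a cells and 22.3% on FPKM, and in 62.1% for the guide in IR-treated cells and 41.4% with the correction. The median over all genes for IR in control cells moved from -0.02 to 0.19 with upper-quartile factors and to -0.34 on FPKM.

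With a replicate block over the untreated libraries 3262 genes were called for the guide, and 1 of the 9 was called lower (Parp1, -0.46, edgeR adjusted p = 0.0202). No pairing by number was seen: deviations of same-numbered libraries correlated at -0.17, 0.09 and 0.16 across genes, and not every library correlated best with its own number. With 3 libraries per group these values cannot decide whether the libraries were paired. No paired analysis was possible for comparisons with IR because the IR columns carry no replicate numbers of the labels.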
